A study of Mus musculus with 10 samples.

Results

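A set of 10 genes of the fibroblast and meningeal matrix were followed through every library of the series: Pcolce, Col1a1, Col1a2, Col3a1, Dcn, Lum, Slc6a13, Igf2, Ptgds and Col9a3. They were taken by symbol, as 10 of the 53379 genes counted, and all 10 passed the filter on low counts that left 19754 genes for testing. Because they were chosen by their counts and fold changes in these same libraries, their levels are given as a description and carry no test of their own. RNA-seq was run on hippocampal material sorted for EYFP from 5-week-old male mice injected with a pair of vectors, AAV9-c-Fos-tTA together with AAV9-TRE-ChR2-EYFP, so that the c-Fos promoter marked cells active in a 48 h window off doxycycline (Dox); the study calls the sorted material cells in one place and nuclei in another. The aversive group (2 libraries) received 4 foot shocks of 2 s at 1.5 mA. The appetitive group (2 libraries) spent 1 h with a female by the labels. The neutral group (3 libraries) was placed in the same conditioning cage with neither stimulus. The mock group (3 libraries), described as untagged, stayed in the home cage, and the paper does not state what was sorted for it. Labels give 8 pooled mice per condition, whereas the methods give 2 mice for mock, and separate pools for the libraries of a group are not stated; adjusted p-values therefore measure the spread between libraries, which may be technical.

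Collagens I and III are the fibre-forming collagens that fibroblasts secrete as procollagens. Procollagen C-endopeptidase enhancer (Pcolce) speeds the removal of their C-terminal ends, and the small leucine-rich proteoglycans decorin (Dcn) and lumican (Lum) bind the finished fibres and set their width. In the brain such cells sit in the leptomeninges, around larger vessels and in the stroma of the choroid plexus, and not among hippocampal neurons. Slc6a13, a GABA and taurine transporter, Igf2, a secreted growth factor, and Ptgds, which makes prostaglandin D2, are used as markers of leptomeningeal cells, although Igf2 and Ptgds are also made in the choroid plexus and Ptgds in oligodendrocytes. Col9a3 encodes a chain of collagen IX, a cartilage collagen that coats other fibres.

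What the 4 collagens have in common is legible in their coding sequence: a glycine codon in each triplet of the repeat glycine-X-Y, which lets 3 chains wind into a helix. In the longest coding transcript of each gene (GENCODE M21, GRCm38) the longest unbroken series held 338 such glycines in Col1a1 (69.8% of its 1453 codons), 339 in Col1a2, 344 in Col3a1 and 113 in Col9a3, where interruptions leave 49.9% of 680 codons in the longest block. The other 6 members had at most 2 in a row. The first 90 bases of each block are shown, glycine codons in capitals, from chr11:94939451-94939939 (Col1a1, plus strand, 3 exons), chr6:4512406-4515516 (Col1a2, plus, 3 exons), chr1:45323762-45325413 (Col3a1, plus, 2 exons) and chr2:180605239-180605780 (Col9a3, plus, 2 exons), introns removed.
Col1a1: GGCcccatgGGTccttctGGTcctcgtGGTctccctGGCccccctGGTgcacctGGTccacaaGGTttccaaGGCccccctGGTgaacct
Col1a2: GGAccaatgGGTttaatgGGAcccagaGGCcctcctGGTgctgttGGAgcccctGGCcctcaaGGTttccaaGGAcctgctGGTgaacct
Col3a1: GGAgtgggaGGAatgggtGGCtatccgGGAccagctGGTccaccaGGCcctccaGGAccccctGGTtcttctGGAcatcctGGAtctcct
Col9a3: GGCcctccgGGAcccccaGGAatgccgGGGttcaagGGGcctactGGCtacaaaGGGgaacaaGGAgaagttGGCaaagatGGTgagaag

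Promoter windows from RefSeq (GRCm38.p6, 250 bases upstream of the start) were matched for 6 of the 10 members, 11 windows in all. Pcolce and Igf2 are printed because their levels ran most alike across libraries, Pcolce from chr5:137611488-137611654 (minus strand, the 167 bases outside annotated exons) and Igf2 from chr7:142657497-142657746 (minus strand, the 1 of its 4 windows with the most motif matches), with motif matches in capitals.
Pcolce: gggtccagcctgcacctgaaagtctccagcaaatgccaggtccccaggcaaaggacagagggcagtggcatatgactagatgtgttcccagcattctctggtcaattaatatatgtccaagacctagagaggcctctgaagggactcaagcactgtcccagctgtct
Igf2: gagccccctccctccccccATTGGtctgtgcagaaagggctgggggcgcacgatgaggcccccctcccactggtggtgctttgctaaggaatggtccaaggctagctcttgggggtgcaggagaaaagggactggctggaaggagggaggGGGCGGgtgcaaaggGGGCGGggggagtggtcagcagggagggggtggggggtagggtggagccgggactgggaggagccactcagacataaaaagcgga
The motifs searched on both strands, none of which contains another, were the TATA box (TATAAA), the CCAAT box (CCAAT), the GC box (GGGCGG) and the OTX core (TAATCC). The Igf2 window held 1 match to the CCAAT box and 2 to the GC box, while of its other windows 1 held a GC box and 2 held no match; the printed Pcolce stretch held none, its single GC box match lying in the exonic remainder. Among all 32851 windows of that length, 12.4% held the TATA box, 33.8% the CCAAT box, 32.7% the GC box and 6.25% the OTX core, and of the 11 member windows 1, 3, 5 and 1 did.

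Total counts per library ran from 16968588 to 67650693, and 3 counts, the floor used here, correspond to 0.0346 to 0.235 CPM (counts scaled to library size with edgeR's TMM factors). Kit and sequencer of the 3 neutral libraries were not those of the other 7, so kit and neutral condition cannot be told apart in any comparison with them. Neuronal markers were scarce in all libraries, with a summed level of 52.9 to 769 CPM over 10 genes. Of the 10, 1 to 4 were at 0 counts in each appetitive and neutral library, and 2 in aversive replicate 1. Oligodendrocyte markers summed to between 7560 and 806500 CPM, the highest being appetitive replicate 1. In bulk libraries, fewer cells of a type and less RNA per cell cannot be told apart. The coefficient of variation fitted between libraries of a group was 122%.

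**Figure D1:**
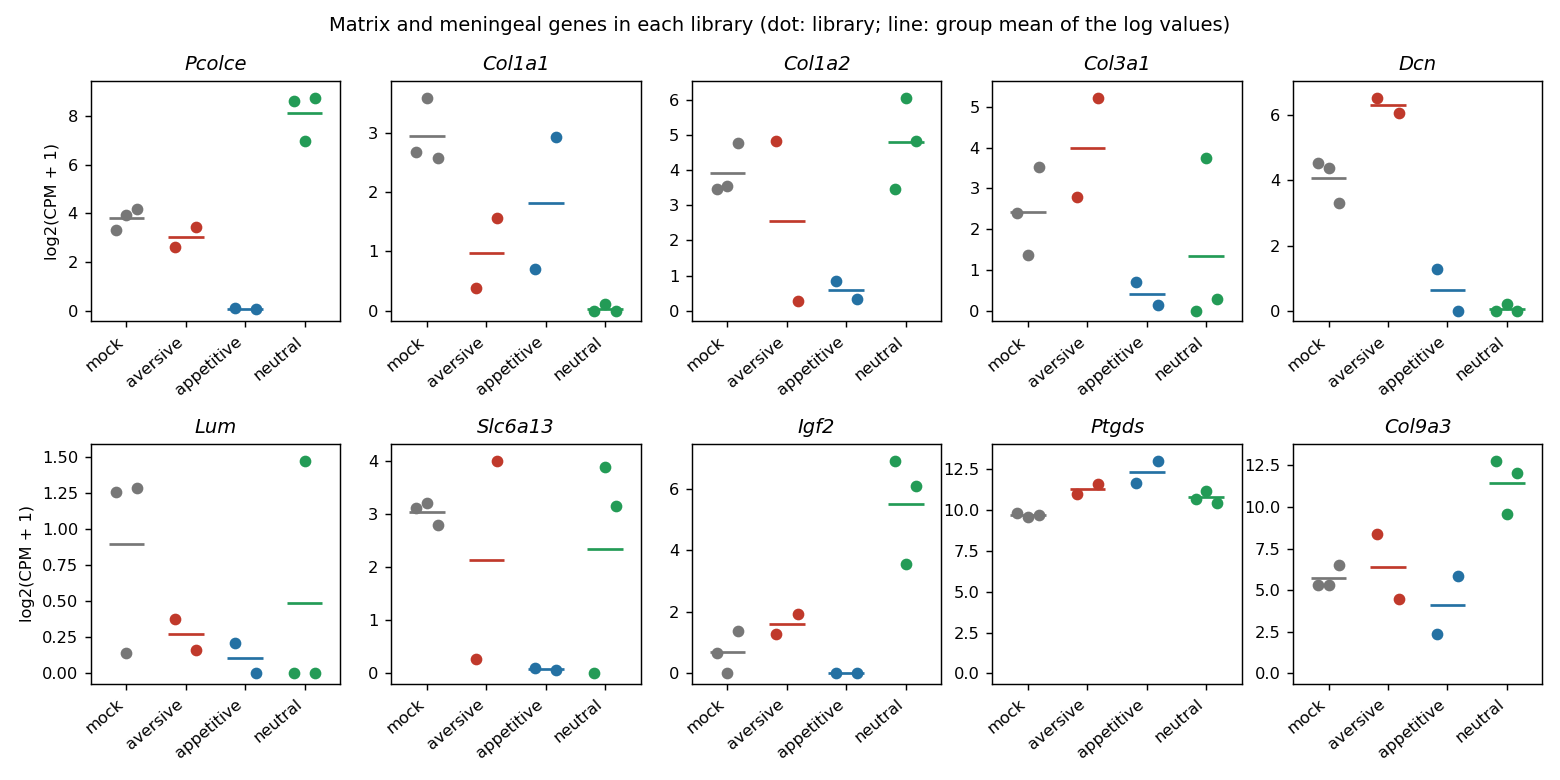
Level of each member in each of the 10 libraries, as log2(CPM + 1), by group (3 mock, 2 aversive, 2 appetitive and 3 neutral libraries); a dot is a library and a line the group's mean of the log values, with a separate vertical scale per gene. Pcolce, Igf2 and Col9a3 are highest in all 3 neutral libraries, Dcn in both aversive libraries, and Ptgds in both appetitive libraries.

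Pcolce (chr5:137605103-137613784, minus strand) was present in every library but over a wide span. Counts were 225, 274 and 1259 in mock replicates 1, 2 and 3 (8.96, 14.3 and 17.4 CPM), 103 and 488 in aversive replicates 1 and 3 (5.15 and 9.78 CPM), 1 and 1 in appetitive replicates 1 and 2, and 25230, 10885 and 33260 in neutral replicates 1, 2 and 3 (398, 126 and 427 CPM). The order was thus neutral above mock above aversive above appetitive, where only mock and aversive overlapped. With means of 317 ± 166 CPM in neutral (SD, n = 3), 13.5 ± 4.27 in mock (n = 3) and 7.47 ± 3.27 in aversive (n = 2), the appetitive level from its 2 counts was 5050-fold below neutral (95% counting interval 1400 to 41700), 216-fold below mock (59.8 to 1780) and 119-fold below aversive (32.9 to 983), intervals that cover counting error in the low group only. Its paralog Pcolce2, which enhances the same cleavage, was measured separately. The 2 genes had near-equal counts in mock (0.824 to 1.07 Pcolce counts per Pcolce2 count), Pcolce exceeded its paralog in neutral (4.35 to 6.21), and appetitive replicate 2 held 601 Pcolce2 counts beside its single Pcolce count.

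Col1a1 (chr11:94936224-94953042) and Col1a2 (chr6:4504814-4541544) encode the alpha 1 and alpha 2 chains of the same collagen I trimer, yet their levels parted in most libraries outside mock. Col1a1 had 135, 212 and 357 counts in mock, 6 and 98 in aversive, 8 and 126 in appetitive and 0, 7 and 0 in neutral. Col1a2 had 252, 208 and 1906 in mock, 549 and 11 in aversive, 10 and 5 in appetitive and 642, 5645 and 2151 in neutral. All 3 neutral libraries therefore carried Col1a2 (10.1 to 65.2 CPM) with Col1a1 at no more than 0.0809 CPM.

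Per kilobase of exon, the ratio of Col1a1 to Col1a2 was 1.01, 1.93 and 0.355 in mock replicates 1, 2 and 3. It was 0.0207 in aversive replicate 1 and 16.9 in aversive replicate 3, and 1.51 and 47.7 in appetitive replicates 1 and 2. In neutral it was 0, 0.00235 and 0. The chain with the higher level per kilobase thus differed between libraries in mock and aversive, and was Col1a1 in both appetitive and Col1a2 in all 3 neutral libraries. In appetitive replicate 1, with 8 Col1a1 and 10 Col1a2 counts, the order depended on the exon lengths used (6563 and 12426 bases). By group mean, Col1a1 was highest in mock (7.12 ± 3.41 CPM, n = 3) and Col1a2 in neutral (34.3 ± 28.1 CPM, n = 3).

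Col3a1 (chr1:45311538-45349706), the single chain of collagen III, was again patchy. Counts were 108, 30 and 761 in mock, 118 and 1802 in aversive, 8 and 2 in appetitive, and 0, 1078 and 17 in neutral. Neutral replicate 2 stood apart from the other 2 neutral libraries, and neighbouring groups in the order aversive, mock, neutral, appetitive all overlapped. At 21.0 ± 21.4 CPM (SD, n = 2), the aversive mean rested on replicate 3.

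Decorin and lumican lie 46984 bases apart on chromosome 10 (Dcn chr10:97479609-97518143 and Lum chr10:97565128-97572703, both plus strand). Dcn had 555, 384 and 651 counts in mock (22.1, 20.0 and 9.0 CPM), 1822 and 3306 in aversive (91.2 and 66.3 CPM), 18 and 0 in appetitive, and 0, 13 and 0 in neutral. Aversive libraries were above mock, and mock above appetitive and neutral, with no overlap at either step; appetitive and neutral overlapped. Aversive and neutral means were 78.7 ± 17.6 CPM (n = 2) and 0.0501 ± 0.0867 CPM (n = 3), a fitted log2 difference of 10.51 ± 2.46 (SE).

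Lum was the member with the lowest mean level per kilobase (0.216 CPM over the 10 libraries). It had 35, 2 and 104 counts in mock, 6 and 6 in aversive, 2 and 0 in appetitive, and 0, 154 and 0 in neutral. No 2 groups were apart for Lum, and 5 of 10 libraries were at or under 3 counts. Dcn exceeded Lum per kilobase in each of the 6 libraries with Lum counts outside neutral (2.62 to 231 times), whereas in neutral replicate 2 the order was turned (0.0354).

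Col9a3 (chr2:180597790-180622189) was abundant where its own partner chains were not. Counts were 992, 749 and 6540 in mock (39.5, 39.0 and 90.4 CPM), 6661 and 1036 in aversive (333 and 20.8 CPM), 54 and 1101 in appetitive (4.22 and 57.7 CPM), and 442758, 65538 and 330204 in neutral (6980, 757 and 4240 CPM). Neutral libraries were above all others, and the other 3 groups overlapped. Per kilobase, the neutral mean of 1040 CPM was close to the 1070 CPM of Ptgds, the member otherwise highest.

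Collagen IX needs alpha 1, alpha 2 and alpha 3 chains. Col9a1 and Col9a2, looked at as partners after the Col9a3 values were seen, averaged 0.00526 and 0.0814 CPM in neutral, 1.48 and 1.98 CPM in mock, and no more than 0.11 CPM in the aversive and appetitive groups. The chain measured here as Col9a3 was therefore counted almost alone. Of the transcript's neighbours, Tcfl5 overlaps 6.07% of its exon bases on the other strand, and its counts over all libraries came to 0.0381% of those of Col9a3.

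Igf2 (chr7:142650766-142666816, minus strand) was, like Pcolce, highest in neutral and lowest in appetitive, at a lower level per kilobase (11.5 against 82.9 CPM in neutral). It had 15, 0 and 117 counts in mock, 29 and 139 in aversive (1.45 and 2.79 CPM), 0 and 0 in appetitive, and 7581, 931 and 5241 in neutral (120, 10.8 and 67.3 CPM). All neutral libraries were above all others, and aversive was above appetitive, while mock overlapped both. Against a floor of 3 counts over both appetitive libraries, Igf2 was at least 700-fold lower there than in neutral, at least 22.5-fold lower than in aversive and at least 7.84-fold lower than in mock. Gm49394 shares most of the Igf2 exons (64.5% of Igf2 exon bases lie in other genes) but was counted at 0 in each library, and how reads falling in both were assigned is not given in the sources used here. Igf2os, on the other strand, had at most 42 counts.

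Slc6a13 (chr6:121300227-121337733) had a steady mock level, at 7.68, 8.28 and 5.97 CPM (7.31 ± 1.20, n = 3). Elsewhere it was on or off by library, with 4 and 751 counts in aversive, 1 and 1 in appetitive, and 0, 1195 and 615 in neutral. Mean levels of aversive (7.63 CPM), mock and neutral (7.23 CPM) were nearly equal and overlapped. The 2 appetitive counts gave a level 117-fold below mock (95% counting interval 32.3 to 962).

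Ptgds (chr2:25466709-25470046, minus strand) was the member with the most counts in 8 of the 10 libraries, neutral replicates 1 and 3 being the exceptions. It had 22363, 14544 and 58410 counts in mock (890, 757 and 807 CPM), 39883 and 153881 in aversive (2000 and 3080 CPM), 40287 and 154840 in appetitive (3150 and 8110 CPM), and 102908, 199104 and 107301 in neutral (1620, 2300 and 1380 CPM). Appetitive was above aversive and neutral, which overlapped, and mock was below all 3. The appetitive mean was 5630 ± 3510 CPM (n = 2) against 818 ± 67.2 CPM in mock (n = 3), a fitted log2 difference of 2.78 ± 0.538 (SE), or 1.74 without appetitive replicate 2. The summed level of 10 oligodendrocyte markers ran from 90710 to 806500 CPM in appetitive, 51740 to 367100 in mock, 26870 to 411600 in aversive and 7560 to 36960 in neutral, none of the 10 being at 0 in any library. Over the 10 libraries r of Ptgds with this sum was -0.02. The part of oligodendrocyte RNA in the Ptgds level was not tested.

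In the appetitive versus neutral comparison, 3 of the 10 members passed the threshold of edgeR's quasi-likelihood test (adjusted p under 0.05 over 19754 genes), namely Pcolce, Igf2 and Col9a3, all lower in appetitive, where 6.17% of all genes tested did. In appetitive versus aversive Pcolce passed (1 of 10, against 1.8% of all genes), and in appetitive versus mock Pcolce, lower, and Ptgds, higher (2 of 10, against 1.98%). None passed in aversive versus neutral (0.0405% of all genes), neutral versus mock (0.0861%) or aversive versus mock (0%), although 5, 6 and 1 members were at an unadjusted p under 0.05 there and DESeq2 called 5, 5 and 0. As fold changes of this series chose the members, nothing is read from these counts.

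Fitted log2 differences are given for the members as sizes. Appetitive minus neutral, Pcolce was at -12.22 ± 1.33 (SE), Col9a3 at -7.01 ± 1.72, Slc6a13 at -6.75 ± 3.07, Col1a2 at -6.04 ± 2.1, Col3a1 at -3.54 ± 2.63 and Lum at -2.95 ± 2.98. Igf2, at 0 in appetitive, was also lower, while Col1a1 (6.9 ± 2.32), Dcn (3.69 ± 1.92) and Ptgds (1.67 ± 0.527) lay on the other side. The Dcn value had the opposite sign without appetitive replicate 1 (-4.38), and those of Col3a1 (1.7) and Lum (4.62) without neutral replicate 2. The median over the 10 members was -4.79, against -0.91 over all genes tested. Between appetitive and aversive libraries it was -5.29 (-4.61 with Igf2 held at its bound) against -0.48, and between appetitive and mock -4.26 (-3.79) against -1.45, with 8 and 9 members negative. Aversive minus neutral gave -0.62 against -0.15, neutral minus mock 0.55 against 0.08 and aversive minus mock 0.78 against -0.13, with 5, 5 and 6 members positive. These comparisons share libraries and are not independent of each other.

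By the levels of single libraries, all libraries of the appetitive group lay apart from all neutral libraries for 6 of 10 members, 4 of them lower (Pcolce, Col1a2, Igf2 and Col9a3) and 2 higher (Col1a1 and Ptgds), where 38.6% of all genes tested were apart. The counts were 6 for appetitive and mock (48.7% of all genes), 6 for aversive and appetitive (28.4%), 6 for neutral and mock (32%), 5 for aversive and neutral (33.7%) and 3 for aversive and mock (36.1%).

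**Figure D2:**
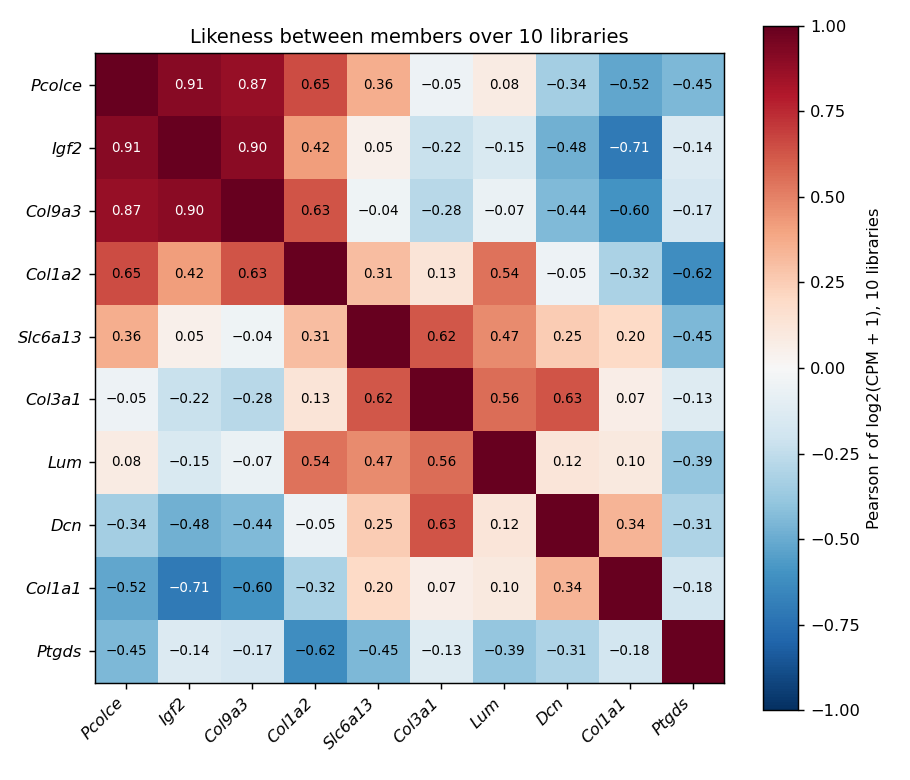
Pearson r of log2(CPM + 1) over the 10 libraries for each pair of members, red for positive and blue for negative. Pcolce, Igf2 and Col9a3 form the block at the upper left (0.87 to 0.91), while Col1a1 and Col1a2, chains of the same trimer, are at -0.32.

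Across the 10 libraries the members did not vary as a single set. Pcolce, Igf2 and Col9a3 ran together, with Pearson r (rho) of 0.91 (0.83) for Pcolce and Igf2, 0.87 (0.67) for Pcolce and Col9a3, and 0.90 (0.75) for Igf2 and Col9a3. Col3a1 was most like Dcn (0.63), Slc6a13 (0.62) and Lum (0.56). Col1a1 was at -0.71 with Igf2, -0.60 with Col9a3 and -0.32 with Col1a2, and Ptgds was below 0 with all 9 others. These values describe 10 points that share group, kit and depth, and the first set is high in 1 group. The set named for fibroblasts and meninges thus had no shared pattern here. In neutral replicates 1 and 3, where Pcolce was highest, Dcn, Col1a1 and Lum were at 0 counts, Col1a2 had 642 and 2151 counts, and Col3a1 had 0 and 17.

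Genes with the most similar pattern among all those tested were, for Pcolce, Trpv4, Steap2 and Cetn4 (r 0.98 to 0.99), for Igf2, Atp2b3, Gm16090 and Sytl3 (0.98 to 0.99), and for Col9a3, Col8a1, Slc16a8 and Kcnj13 (0.96 to 0.97). Kcnj13 is a potassium channel of choroid plexus epithelium and was among the marker genes below. For Dcn they were 9630001P10Rik, Gm266 and Tnfaip2, for Lum Gm43681, 4933415A04Rik and Gm22771, for Col1a1 Lypd6, Lin9 and Chrdl1, and for Col1a2 Ankrd50, Pigb and Gtdc1 (0.94 to 0.99). Lrrc4, Kcnma1 and Celsr3 ran closest to Col3a1, Isy1, Glce and Rasd2 to Slc6a13, and Atraid, Get4 and Upf3b to Ptgds (0.93 to 0.99). Only for Col9a3 was a collagen, Col8a1, among the 3 genes named.

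**Figure D3:**
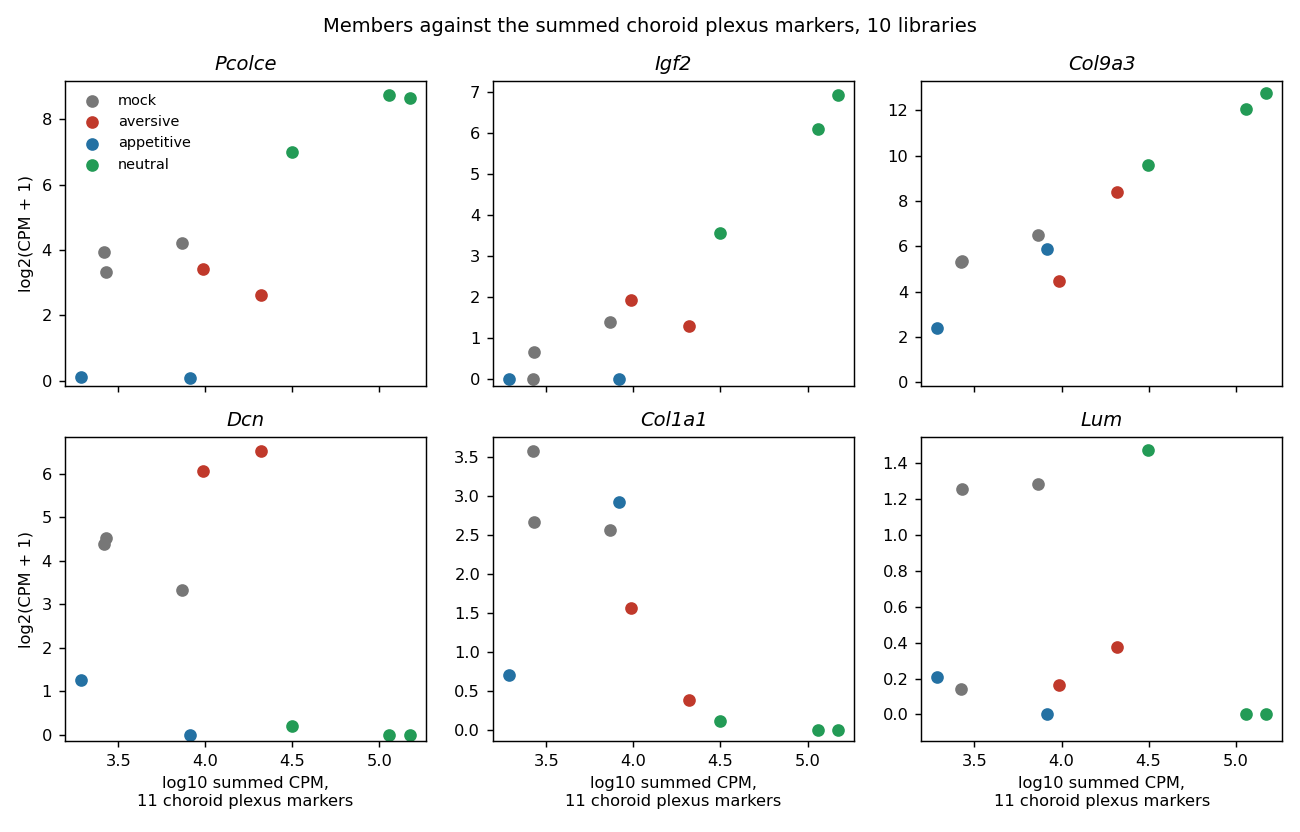
Level of 6 members as log2(CPM + 1) against the summed level of 11 choroid plexus markers (log10 CPM), a dot per library coloured by group. Col9a3 and Igf2 are high where the markers are high (r 0.95 and 0.93), while Dcn, Col1a1 and Lum are at 0 in the 2 neutral libraries with the highest marker sums.

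The summed level of 11 choroid plexus markers moved with Pcolce, Igf2 and Col9a3. It ran from 31510 to 149500 CPM in neutral, 9706 to 20900 in aversive, 2635 to 7366 in mock and 1935 to 8209 in appetitive, where 1 to 3 of the 11 were at 0. In appetitive the sum was nearly all Ttr (847.7 to 2897 CPM) and Enpp2 (1086 to 5131 CPM). Kl, Folr1, Aqp1, Clic6 and Otx2 were lower in both appetitive libraries than in every mock library. Appetitive and mock libraries were apart, in either direction, for 48.7% of all genes tested. Folr1 was at 0.1564 to 5.552 CPM against 14.45 to 54.46 CPM in mock. The other markers, Ttr and Enpp2 among them, overlapped between these groups. Within neutral, the sum was 149500, 31510 and 114200 CPM in replicates 1, 2 and 3, an order that Col9a3 and Igf2 shared. Against this sum, r was 0.95 for Col9a3, 0.93 for Igf2 and 0.81 for Pcolce, and -0.72 for Col1a1 and -0.44 for Dcn. Its part in the neutral levels of these 3 genes was not tested.

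Counts were also set against those of Ttr, transthyretin, the choroid plexus marker chosen for this after its values were seen. For every 1000 Ttr counts there were 54.2, 36.5 and 45.3 Col9a3 counts in neutral, 37.0, 36.4 and 28.6 in mock, 25.3 and 3.06 in aversive, and 4.98 and 19.9 in appetitive. Igf2 gave 0.928, 0.519 and 0.719 in neutral, 0.56, 0 and 0.512 in mock, 0.11 and 0.41 in aversive, and 0 in both appetitive libraries. Pcolce gave 3.09, 6.06 and 4.57 in neutral, 8.4, 13.3 and 5.51 in mock, 0.39 and 1.44 in aversive, and 0.0923 and 0.0181 in appetitive. Per Ttr count, neutral and mock overlapped for all 3 genes. Both appetitive libraries, and likewise both aversive libraries, lay below all neutral libraries for each. Appetitive lay below aversive for Igf2 and Pcolce, and the groups overlapped for Col9a3. These ratios hold for Ttr only. Every marker of the choroid plexus list except Slc4a5 was lower in both appetitive libraries than in all neutral libraries. Appetitive and neutral libraries were apart, in either direction, for 38.6% of all genes tested. Ttr was at 847.7 to 2897 CPM in appetitive and 20730 to 128900 CPM in neutral. Otx2 was at 0 to 0.05238 CPM and 41.6 to 368.2 CPM. Ratios to the other markers were not computed.

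Mural markers (12 genes of pericytes and smooth muscle) summed to 6897 CPM in neutral replicate 2, against 679.5 and 2884 CPM in replicates 1 and 3 and 200.4 to 1170 CPM in all others. The same library had the highest neutral level of Col1a2, Col3a1, Lum and Slc6a13. It was also highest for Ptgds, Col1a1 (7 counts) and Dcn (13 counts), and lowest for Pcolce, Igf2 and Col9a3. Over all libraries r with the mural sum was 0.74 for Slc6a13, 0.72 for Pcolce, 0.53 for Col1a2 and 0.31 for Col3a1. Border macrophages, which share the meninges with fibroblasts, had 5, 2 and 6 of 7 markers at 0 in neutral replicates 1, 2 and 3 and 3 or 4 in the appetitive libraries, and none at 0 in mock and aversive. Their sum had an r of 0.66 with Dcn, and Dcn had a higher r with astrocyte (0.76), erythroid (0.69) and microglia (0.67) markers. Astrocyte markers summed to 451.7 to 466.9 CPM in neutral and 3356 to 15740 CPM in the other libraries, microglia markers to 41.96 to 378.9 and 1054 to 10120 CPM, and erythroid markers to 2.209 to 59.66 and 98.58 to 2290 CPM. The part of these cell types in the members' levels was not tested.

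Companion lists hold 152 further genes of the same pathways, 143 of them tested. In appetitive versus neutral 13 passed, 9.09% against 6.17% of all genes, 12 lower and 1 higher. In appetitive versus aversive 2 passed (Loxl3 and Ptgis), 1.4% against 1.8% of all genes. In appetitive versus mock 2 passed (Loxl3 and P3h2), 1.4% against 1.98%. Without any 1 mock library none passed in either comparison. In the other 3 comparisons none passed, against 0.0405% (aversive versus neutral), 0% (aversive versus mock) and 0.0861% (neutral versus mock) of all genes. DESeq2 called 24, 17 and 12 companions there, in that order, among 3334, 1442 and 1573 genes called in all. The count of 13 rested on single libraries: without neutral replicate 3 it became 0, without any 1 mock library 2, without neutral replicate 1 or 2 4 or 5, and without either aversive library 26.

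**Figure D4:**
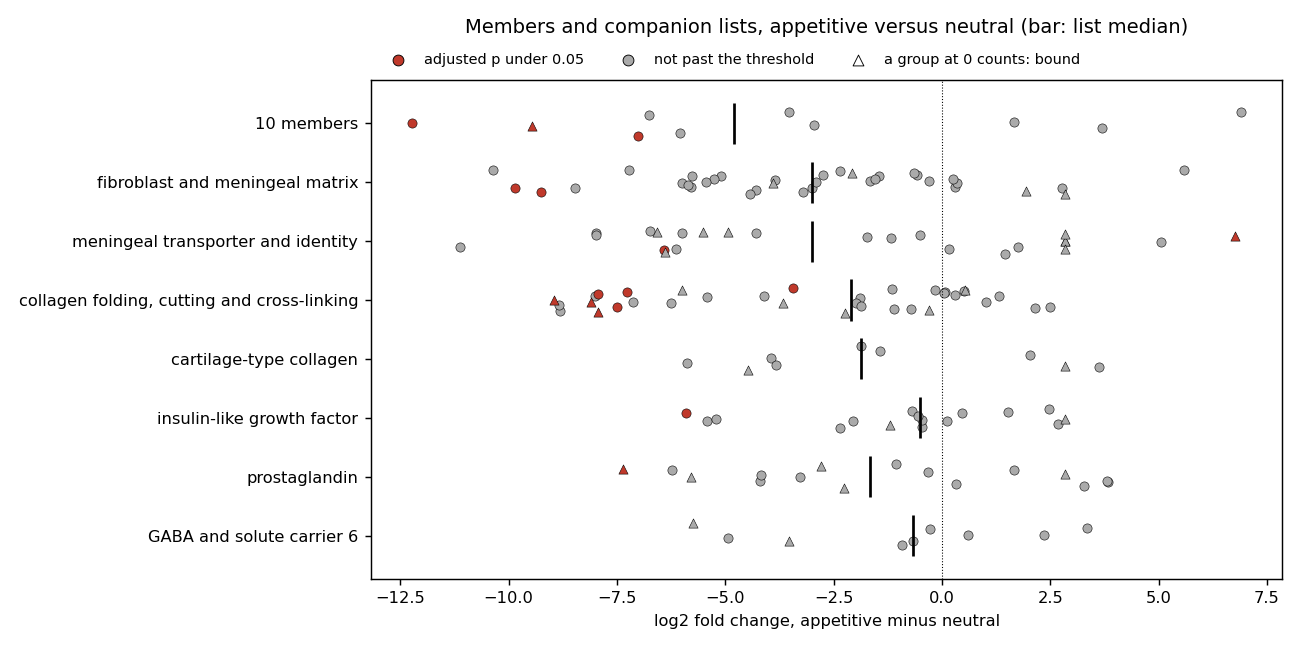
Log2 fold change, appetitive minus neutral, of the 10 members and of the genes tested in the 7 companion lists; red marks an adjusted p under 0.05, a triangle a gene at 0 counts in all libraries of a group drawn at its bound, and a bar the list's median. The collagen folding, cutting and cross-linking list holds 7 of the 13 red companions.

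The enzymes and chaperones that fold, cut and cross-link collagen gave 7 of those 13 calls, out of 34 genes (20.6%), all lower in appetitive, with a median log2 difference of -4.36 (-2.11 with genes at 0 held at their bound) against -0.91 over all genes. Loxl3, a lysyl oxidase that cross-links collagen, had 0 counts in both appetitive libraries and 18.2 to 37.6 CPM in neutral, at least 273-fold lower (edgeR adjusted p = 0.0163). It was also at least 476-fold lower than in aversive (adjusted p = 0.0253) and at least 151-fold lower than in mock (adjusted p = 0.0317). P3h2, a prolyl 3-hydroxylase, was at 0 in appetitive as well, at least 244-fold below neutral (adjusted p = 0.0229) and at least 72.7-fold below mock (adjusted p = 0.0477), and aversive held a single count.

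Serpinh1, the collagen chaperone HSP47, stood at 38.6 ± 24.3 CPM in appetitive (n = 2) and 417 ± 130 CPM in neutral (n = 3; edgeR adjusted p = 0.0465). P4ha2, Colgalt1, Fkbp14 and Loxl1, which hydroxylate, glycosylate, fold and cross-link collagen, were lower as well. The list's most abundant other genes, Sparc (245 to 1640 CPM over all libraries) and P4hb (149 to 618 CPM), did not pass.

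Of 35 tested genes of the fibroblast and meningeal matrix list 2 passed (5.71%), Fmod, a fibril-binding proteoglycan, and Islr, both lower in appetitive, with a list median of -3.3 (-3.01 with bounds). Prelp, Fn1 and Efemp2, its 3 most abundant, did not pass: Prelp had 301 to 376 CPM in neutral and 2.72 and 84.8 CPM in appetitive. Of 24 tested meningeal transporter and identity genes 2 passed. Slc6a20a, a proline transporter, had 102 to 136 CPM in neutral and 0.0524 and 2.74 CPM in appetitive (edgeR adjusted p = 0.0401). Slc13a3, a dicarboxylate transporter, went the other way, with 0 counts in all 3 neutral libraries. Its mean level was at least 108-fold higher in appetitive (edgeR adjusted p = 0.0401). The appetitive values were 0.0782 CPM, under the floor of 3 counts, and 2.78 CPM, so the mean rested on a single library. Both were below every mock (5.16 to 30.1 CPM) and every aversive library (15 to 35.8 CPM). Slc22a8, Slc13a4 and Cxcl12 were the most abundant of that list, and none passed.

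Igfbp2, which binds the product of Igf2, was the 1 call among 16 tested insulin-like growth factor genes (6.25%, near the 6.17% of all genes). It averaged 46.9 ± 7.12 CPM in appetitive (n = 2), 215 ± 97.7 in aversive (n = 2), 122 ± 66.3 in mock (n = 3) and 2820 ± 1910 in neutral (n = 3; edgeR adjusted p = 0.0173 for appetitive versus neutral). For every 1000 Igfbp2 counts there were 27.7, 16.2 and 19.4 Igf2 counts in neutral, 3.02, 0 and 17.5 in mock, 5.11 and 19.1 in aversive, and 0 in both appetitive libraries. Igfbp7 and Igfbp5 did not pass.

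Around Ptgds, 1 of 16 tested prostaglandin genes passed in appetitive versus neutral (6.25%, near the 6.17% of all genes). Ptgis, prostacyclin synthase, had 0 counts in both appetitive libraries, where Ptgds was highest, and was at least 165-fold below neutral (edgeR adjusted p = 0.0237) and at least 363-fold below aversive (adjusted p = 0.0338). Ptgs1, Ptges2 and Hpgd were the most abundant and did not pass. None of 9 cartilage-type collagen genes (Col11a2, Col27a1 and Matn4 being the most abundant) and none of 9 GABA and solute carrier 6 genes (Slc6a6 and Abat among the most abundant) passed in that comparison, counts too small to set apart from the 6.17% of all genes.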

How the data were processed

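RNA-seq gene counts were used for 10 mouse libraries. The authors aligned 40 bp from the start of every read to mm10 using STAR and Ensembl GRCm38 annotation, counted reads per gene with featureCounts (Subread) without strand, and deposited raw counts; tool versions are not given in the sources used here. Antisense partners can therefore share reads. Of the 53379 identifiers, 53274 matched GENCODE M21.

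Counts were fitted in edgeR 4.0.16 (TMM, filterByExpr, glmQLFit and glmQLFTest, all 10 libraries in 4 groups, R 4.3.3), with Benjamini-Hochberg adjustment over 19754 genes. DESeq2 1.42.0, its size factors, no filter, a replicate block and each library left out were alternatives. The fit was tested on simulated data. CPM are TMM-scaled; likeness used log2(CPM + 1). A fold against 0 counts is a bound at 3 counts over the group; intervals are exact Poisson.

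Members and lists were chosen with earlier results of these data known. Named genes were the members, genes overlapping them, the 3 most abundant tested genes of each companion list, the 3 companions with the smallest p per comparison and direction among those called, the 3 genes most alike each member and markers at 0. P4ha2, Colgalt1, Fkbp14, Loxl1, Fmod, Islr, Slc6a20a, Col9a1, Col9a2, Pcolce2 and Ttr fall outside that rule and were added after their values were seen. Some named items are not reported here.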

Additional observations from a re-analysis of the deposited data

How the results depend on the processing

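Of 840 member differences under alternatives, 804 moved by less than their SE, 36 by more, and 26 had the other sign, among them Slc6a13, Col3a1, Lum, Col1a2, Col1a1, Dcn and Col9a3 but not Pcolce, Igf2 or Ptgds. Under DESeq2 size factors the appetitive minus neutral values shifted by 0.31 (log2), and only Col1a2 in aversive versus mock turned sign. Members called in appetitive versus neutral ranged from 1 to 7. Neutral was the highest group for 4 of 10 members under both scalings.

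Genes called were 3334, 5952, 3948, 1442, 4658 and 1573 with DESeq2 and 863, 2535, 1270, 10, 1124 and 520 without a filter, in the order aversive versus neutral, appetitive versus neutral, appetitive versus aversive, aversive versus mock, appetitive versus mock and neutral versus mock; size factors gave 260 in appetitive versus mock. Companions called were 24, 47, 27, 17, 39 and 12 with DESeq2 and 9, 26, 15, 0, 14 and 10 without a filter, and 1 with size factors in appetitive versus mock. Left-out libraries gave 0 to 453, 67 to 2661, 0 to 1460, 0 to 0, 0 to 1800 and 0 to 84 genes, and 0 to 2, 0 to 26, 0 to 8, 0 to 0, 0 to 16 and 0 to 1 companions. The cause was not tested.

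The replicate block left 0 genes in aversive versus neutral, 73 in appetitive versus neutral and 0 in the other 4 comparisons, with 1 companion in appetitive versus neutral and 0 elsewhere. Whether same-numbered libraries pair was not settled. For them r of the deviations ran from -0.076 to 0.201 over 12 pairs, 3 of them over 0.1. For other numbers it ran from -0.159 to 0.159 over 25 pairs, 1 of them over 0.1. In a group of 2 libraries the deviations mirror each other, so these r are not independent and cannot decide it.

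Levels at or under 3 counts (0.0346 to 0.235 CPM by library) were below the floor, and the coefficient of variation within groups was 122%.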
